A study of Homo sapiens with 4 samples.

Results

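The miR-29 family is made from 4 microRNA (miRNA) loci, MIR29A, MIR29B1, MIR29B2 and MIR29C, which were chosen by gene symbol from 7062 small RNA features counted in human HEK293T cells. All 4 loci were present in each of the 4 libraries and all 4 passed the filter on low counts. The libraries came from cells that depended on a transfected RPB1, which is the catalytic subunit of Pol II (RNA polymerase II), and the study set 52X T4A against 52X WT. Both versions carry a C-terminal domain of 52 heptad repeats, and in 52X T4A the threonine at the fourth position of the repeats is replaced by alanine, as its name says. All cells were transiently transfected with 1.5 µg of plasmid per well and then kept for 72 hours in α-amanitin at 2.5 µg/ml, a Pol II toxin that removed untransfected cells, so the 52X WT control also went through transfection and selection. There were 2 biological replicates of each group, sequenced as single-end reads of 50 bp. The labels name the line HEK293 in the sample fields and HEK293T, its derivative with the SV40 T antigen, in the protocols.

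Pol II transcribes most miRNA genes as long primary transcripts, from which Drosha and then Dicer cut hairpins into mature strands. The members of the miR-29 family share a seed, the stretch near the 5′ end that pairs with target mRNAs, and are best known for holding down collagens and other matrix proteins, the DNA methyltransferases DNMT3A and DNMT3B, and the survival factor MCL1. Transcription of both miR-29 clusters is repressed by MYC in several tumor types. The comparison asked whether these levels differ when the fourth heptad residue cannot be phosphorylated.

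The mature sequences are shown because they set which loci can be told apart. In RefSeq (GRCh38.p14) the 3p strands, the usual guide strands of this family, read 5′ to 3′ as follows, with the seed (bases 2 to 8) in capitals.
miR-29a-3p: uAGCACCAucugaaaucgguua
miR-29b-3p: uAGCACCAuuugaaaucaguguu
miR-29c-3p: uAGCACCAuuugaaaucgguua
Of 2545 mature entries in the table, the seed AGCACCA was found at 4 loci, which were the members of the family, under 3 mature names. miR-29a-3p and miR-29c-3p differ at 1 of 22 bases (C10U, counted from the 5′ end of miR-29a-3p). MIR29B1 and MIR29B2 give the same miR-29b-3p, which differs from miR-29c-3p at 3 of 22 bases (A18G, G21U and U22A, counted in miR-29b-3p) and from miR-29a-3p at 4. Bases 9 to 11 are UCU in miR-29a-3p and UUU in the others.

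The last 6 bases of miR-29b-3p, AGUGUU, are known as a signal for import into the nucleus.
miR-29b-3p, this ending in capitals: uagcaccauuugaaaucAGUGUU
Besides the pair of miR-29b loci, 1 locus of the 1736 in the table has a mature strand with this ending, MIR519E, which had from 0 to 3 counts per library. What separates MIR29B1 from MIR29B2 is the opposite strand. Their 5p strands, with bases 2 to 8 in capitals, overlap over 22 bases with 2 differences (U11C and U19C, counted in miR-29b-1-5p).
miR-29b-1-5p: gCUGGUUUcauauggugguuuaga
miR-29b-2-5p: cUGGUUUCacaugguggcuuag

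The loci form 2 clusters on the minus strand. MIR29A (ENSG00000284032.1) is at chr7:130876747-130876810 and MIR29B1 (ENSG00000283797.1) at chr7:130877459-130877539, with 648 bases between the hairpins. No other gene of the RefSeq table contains either hairpin. MIR29C (ENSG00000284214.1) is at chr1:207801852-207801939 and MIR29B2 (ENSG00000284203.1) at chr1:207802443-207802523, with 503 bases between them. Both lie within the long noncoding RNA gene MIR29B2CHG, the host gene of that cluster, at chr1:207801518-207822703. Coordinates are GRCh38, and whether the hairpins fall in its exons or introns was not determined here.

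The libraries held 16180790 to 27370127 counts assigned to features, and 1480 features were tested. As a check of the cell type, 10 miRNA loci typical of HEK293 cells, led by MIR10A and MIR10B, summed to 239600 and 253000 CPM (counts scaled to a library of 1000000) in the 52X T4A libraries and to 285300 and 259900 in the 52X WT libraries. MIR10A and MIR10B made up most of each sum, at 98280 and 94940 CPM in the first 52X T4A library. Their counts were near-equal in each library, at 1555504 and 1502651 in that one. Their separate levels are uncertain, and the sums count any read assigned to both more than once. Markers of other cells (20 loci of liver, muscle, blood, neurons and embryonic stem cells) summed to 138.8 to 172 CPM, and 1 of them was at 0 in all libraries. Within that list the 5 muscle loci stood at 96.5 and 81.6 CPM for 52X T4A, against 30.5 and 33.1 CPM for 52X WT. Most of this came from MIR1-1 and MIR1-2, which share a mature strand and had totals 0.278% apart. Their levels are therefore uncertain as separate values. These 2 were called by DESeq2, which called 30 of 3803 features in all, and 0 of the 5 were called by edgeR. The 4 red cell loci summed to 59.4 and 80.9 CPM for 52X T4A against 122.1 and 97.3 CPM for 52X WT, in the direction of MIR29A and MIR29C below. Nearly all of that sum came from MIR486-1 and MIR486-2, which overlap at one site. MIR451A, the defining red cell miRNA, had 8 and 13 counts for 52X T4A against 3 and 9 for 52X WT, and MIR144 had 0 and 6 against 0 and 3. MIR122, the defining liver miRNA, had at most 15 counts in a library. The part of such RNA in the miR-29 values was not tested.

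The miR-29 family was a minor component of these cells. Its 4 loci together had 2286 and 6113 counts for 52X T4A against 3431 and 3525 for 52X WT, or between 0.0141% and 0.0223% of a library. At CPM scaled by TMM factors, which correct for library composition, the summed level was 144.4 and 193.6 for 52X T4A against 235.1 and 187.2 for 52X WT. The mean was 169 ± 34.8 CPM for 52X T4A against 211.1 ± 33.9 CPM for 52X WT (SD, n = 2 here and below). The groups overlapped, since the second 52X T4A library lay above the second 52X WT library. On the log2 scale the group means differed by −0.33, against a pooled SD between replicates of 0.27. That difference was −0.12 without 52X T4A replicate 1, −0.54 without 52X T4A replicate 2, −0.16 without 52X WT replicate 1, −0.49 without 52X WT replicate 2 and −0.15 with library size alone. This sum counts any read assigned to more than 1 locus more than once. In these bulk libraries, fewer cells with a miRNA and less of it per cell cannot be told apart.

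MIR29A, whose mature strand is the one with a cytosine at base 10, had 1011 and 2782 counts for 52X T4A against 1559 and 1627 for 52X WT. The levels were 63.9 and 88.1 CPM for 52X T4A against 106.8 and 86.4 CPM for 52X WT. The first 52X T4A library was the lowest and the first 52X WT library the highest, and the second libraries lay within 2 CPM of each other. The log2 fold change of 52X T4A over 52X WT was −0.35 ± 0.29 (standard error), and edgeR's quasi-likelihood test gave an adjusted p-value of 0.65, with Benjamini-Hochberg adjustment over all tested features. Its 95% interval ran from a fold of 0.5 to one of 1.24.

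MIR29C, on the other chromosome, followed the same course. It had 1083 and 2916 counts for 52X T4A against 1608 and 1717 for 52X WT, which correspond to 68.4 and 92.4 CPM against 110.2 and 91.2 CPM. Again the groups overlapped through the second library of each. The log2 fold change was −0.32 ± 0.29 (adjusted p 0.668 by the same edgeR test), and the 95% interval of the fold ran from 0.512 to 1.25.

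**Figure D1:**
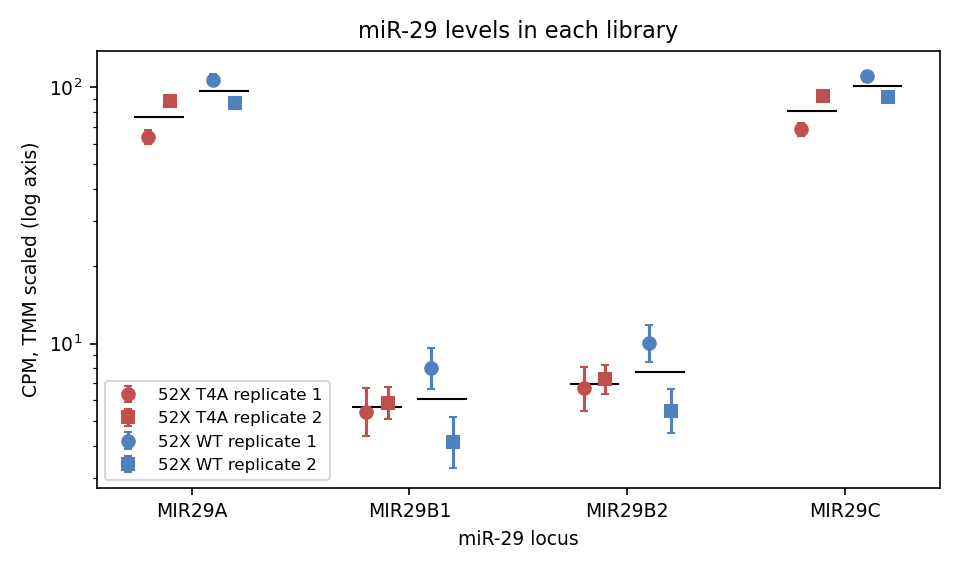
Level of each miR-29 locus in each library, as TMM-scaled CPM on a log axis, with circles for replicate 1, squares for replicate 2, 95% Poisson intervals of the count as bars and group means as black lines. MIR29A and MIR29C sit between 63.9 and 110.2 CPM and MIR29B1 and MIR29B2 between 4.14 and 10.1 CPM, and at each locus the groups overlap.

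The loci of miR-29b were far lower. MIR29B1, the partner of MIR29A, had 86 and 186 counts for 52X T4A against 117 and 78 for 52X WT. Its levels of 5.43 and 5.89 CPM in 52X T4A lay between those of the 52X WT libraries, 8.02 and 4.14 CPM. The log2 fold change was −0.09 ± 0.39 (adjusted p 0.969 by edgeR), and the interval of the fold ran from 0.507 to 1.73.

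MIR29B2, the partner of MIR29C, had 106 and 229 counts for 52X T4A against 147 and 103 for 52X WT. At 6.7 and 7.25 CPM, the 52X T4A libraries again lay between the 52X WT libraries, at 10.1 and 5.47 CPM. The log2 fold change was −0.15 ± 0.38 (adjusted p 0.927 by edgeR), and the interval of the fold ran from 0.496 to 1.64. For both miR-29b loci the 52X WT replicates were further apart than the groups. The log2 ratio of the second to the first 52X WT library was −0.95 for MIR29B1 and −0.88 for MIR29B2, whereas between the 52X T4A libraries it was 0.12 for each. The direction of the miR-29b loci rested on the first 52X WT library. Without it, MIR29B1 was at 0.36 and MIR29B2 at 0.26 on the log2 scale.

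Across the family, 0 of 4 loci were called by edgeR, for which the FDR had to be under 0.05 with a change of over 1.5 fold, 0 had an unadjusted p-value below 0.05, and 0 were called by DESeq2. Over all 1480 tested features edgeR called 2, or 0.135%, and 10.3% had an unadjusted p-value below 0.05. DESeq2 called 30 of the 3803 features with counts. The groups did not overlap for 0 of the 4 loci, where they did not overlap for 40.1% of tested features in either direction, 21.2% with the 52X T4A libraries lower and 18.9% with them higher. All 4 log2 fold changes were below 0, with a median of −0.24 against −0.05 for all tested features, and MIR29B1 and MIR29B2 turned positive with upper quartile factors (0.10 and 0.04) and with library size alone (0.11 and 0.05). Those scalings moved the median of all tested features to 0.13 and 0.14. The 95% intervals of all 4 folds included 1, so no difference was detectable with 2 libraries per group.

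**Figure D2:**
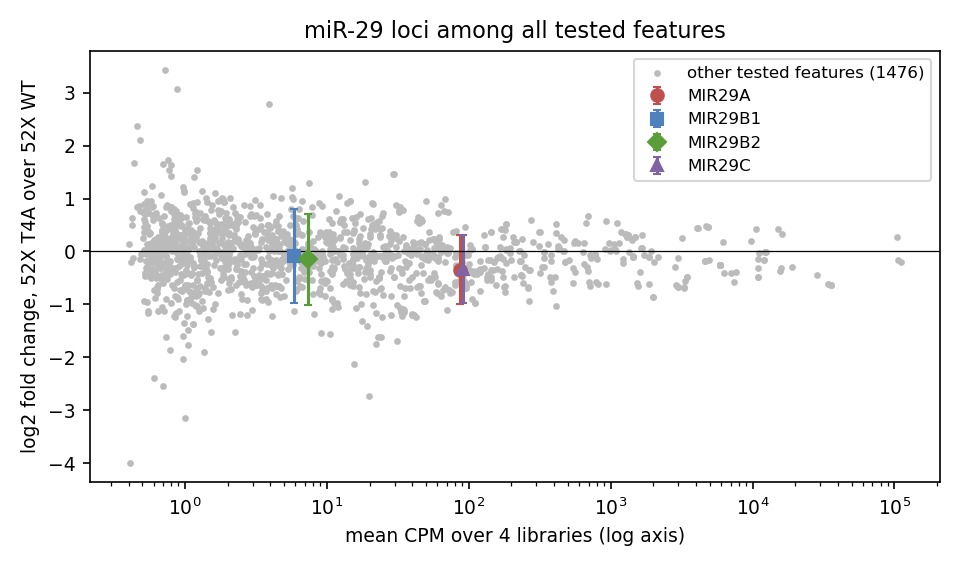
Log2 fold change of 52X T4A over 52X WT against the mean CPM of the 4 libraries (log axis) for all 1480 tested features, with the miR-29 loci in color and their 95% intervals as bars. All 4 loci lie between −0.35 and −0.09 and their intervals cross 0.

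The spread between replicates differed among the loci. MIR29A and MIR29C differed between the 52X T4A libraries by 0.46 and 0.43 on the log2 scale, and between the 52X WT libraries by −0.31 and −0.27. For 171 tested miRNAs with a mean of 100 to 2000 counts, the median size of this replicate difference was 0.25 for 52X T4A against 0.28 for 52X WT. MIR29A lay above the 52X T4A median and MIR29C did too, whereas the 0.12 of MIR29B1 and MIR29B2 lay below it. For 52X WT, MIR29B1 and MIR29B2 were above the median, MIR29A was slightly above it and MIR29C slightly below. The standard errors of the 4 loci, 0.29 to 0.39, stood beside a median of 0.33 for the same miRNAs.

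The order of the levels depended on the scale for the more abundant pair. Per kilobase of hairpin, MIR29A had 1187 ± 267.8 CPM in 52X T4A and 1510 ± 226 in 52X WT. MIR29C had 914 ± 192.3 and 1144 ± 153. On this scale MIR29A was above MIR29C in every library. The values were 998.1 against 777.6 and 1377 against 1050 in 52X T4A, and 1669 against 1252 and 1350 against 1036 in 52X WT. The hairpin is 64 bases long for MIR29A and 88 for MIR29C. In CPM without regard to length MIR29C was the higher of the 2. MIR29B2 followed at 86.1 ± 4.85 CPM per kilobase in 52X T4A and 96 ± 40.2 in 52X WT, and MIR29B1 at 69.9 ± 3.99 and 75.1 ± 33.8. Since hairpins give reads mainly from their mature strands, the hairpin length is a rough scale. Among 621 tested miRNAs ordered by CPM per kilobase, MIR29A was at rank 136, MIR29C at 149, MIR29B2 at 279 and MIR29B1 at 299.

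The counts of MIR29A and MIR29C were nearly equal in every library, although the loci are on different chromosomes. MIR29C exceeded MIR29A by 72 and 134 counts in 52X T4A and by 49 and 90 counts in 52X WT, or by 3.14% to 7.12%. MIR29B2 exceeded MIR29B1 by 20 and 43 counts in 52X T4A and by 30 and 25 in 52X WT, or by 23.1% to 32.1%. In each library the 95% Poisson interval of MIR29A overlapped that of MIR29C, and that of MIR29B1 overlapped that of MIR29B2. These intervals cover counting error only.

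Near-equal counts were common among miRNA loci with the same mature strand. Over 251 miRNA loci with a mean of at least 100 counts, pairs were formed by the nearest mature strands, compared without gaps over the shorter one. Totals agreed within 10% for 27 of 36 pairs with identical strands, for 7 of 32 pairs with 1 mismatch and for 1 of 37 pairs with 2. The pairs do not cover all loci at this count. Those of MIR10A with MIR10B, MIR101-1 with MIR101-2 and MIR181B1 with MIR181B2 are not among them. The pair of MIR29A and MIR29C, with 1 mismatch, was 4.94% apart, and the pair of MIR29B1 and MIR29B2, with none, 25.3%. The pairs of a miR-29b locus with MIR29A or MIR29C, at 3 or 4 mismatches, were at least 1090% apart. The counting option for reads that match several loci is not given in the sources used here. The levels of MIR29A and MIR29C are therefore uncertain as separate values, as are those of MIR29B1 and MIR29B2, and the 4 loci cannot be counted as 4 independent measurements.

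**Figure D3:**
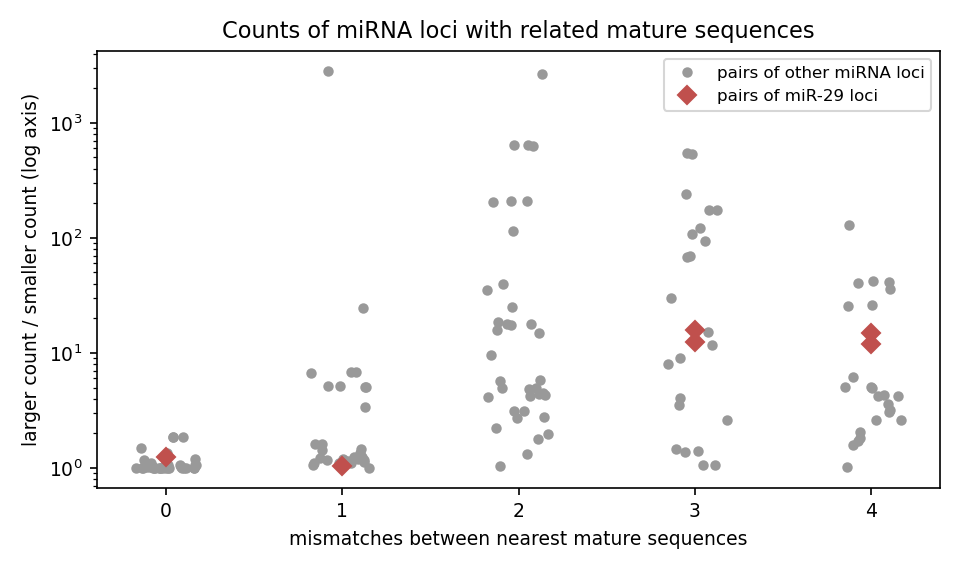
Ratio of the larger to the smaller total count (log axis) for pairs of miRNA loci, by the number of mismatches between their nearest mature strands, with pairs of miR-29 loci as red diamonds and other pairs in gray. MIR29A and MIR29C, at 1 mismatch, differ by 4.94%, and pairs of a miR-29b locus with either of them lie at or above a difference of 1090%.

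Partners of a cluster are taken from a shared primary transcript, and their ratio needs no scaling of libraries. MIR29A exceeded MIR29B1 by a factor of 11.8 and 15 for 52X T4A against 13.3 and 20.9 for 52X WT. MIR29C exceeded MIR29B2 by a factor of 10.2 and 12.7 for 52X T4A against 10.9 and 16.7 for 52X WT. In both clusters the second 52X WT library had the largest ratio and the groups overlapped. Since loci of the 2 clusters may hold the same reads, the 2 ratios are not independent. Neither can be tied to its own chromosome with certainty. The log2 ratio differed between groups by −0.33 for the cluster on chromosome 7, with a pooled SD of 0.37, and by −0.24 for that on chromosome 1, with a pooled SD of 0.34. An exact two-sided permutation test gave p = 0.667 for each of these 2 ratios, and with 2 libraries per group it cannot go below 0.333. Leaving out a library moved the first difference to between −0.65 and −0.01 and the second to between −0.55 and 0.06, the upper value of each being that without 52X WT replicate 2.

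The share of family counts at the miR-29b loci gives the same comparison in one number. It was 8.4% (95% Wilson interval 7.33% to 9.61%) and 6.79% (6.18% to 7.45%) in the 52X T4A libraries, and 7.7% (6.85% to 8.63%) and 5.13% (4.45% to 5.91%) in the 52X WT libraries. The 52X WT intervals did not overlap each other, so the replicates differed by more than counting error if each count is a separate read. Reads assigned to several loci would make these intervals too narrow. The means of 7.59% ± 1.14 in 52X T4A and 6.42% ± 1.81 in 52X WT differed by less than that spread.

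**Figure D4:**
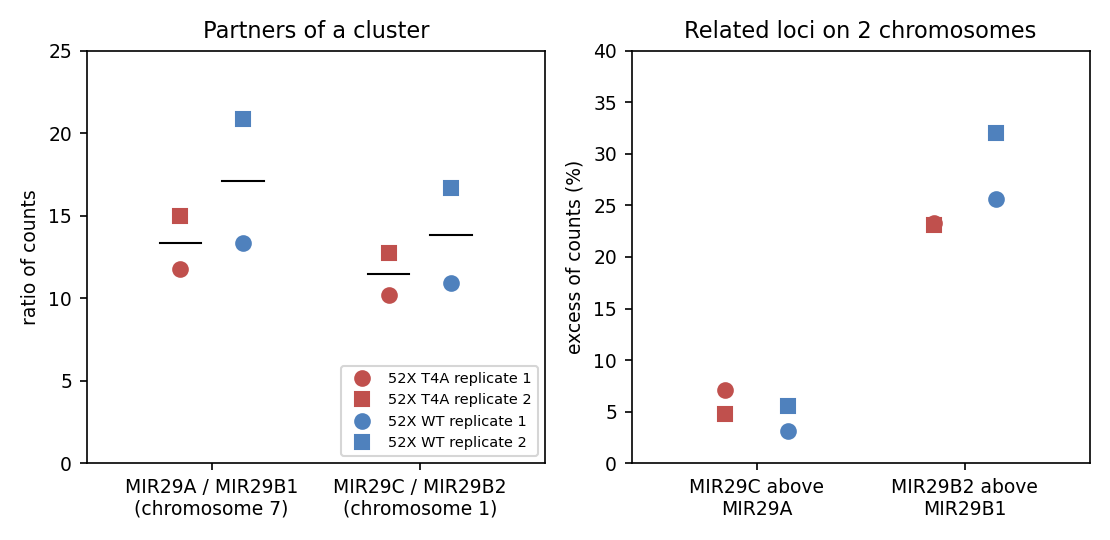
Left, ratio of counts between the partners of each miR-29 cluster in each library, with group means as black lines. Right, excess in percent of MIR29C over MIR29A and of MIR29B2 over MIR29B1, with circles for replicate 1 and squares for replicate 2. The partner ratios run from 10.2 to 20.9 and overlap between groups.

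Similarity of profiles was measured as the root mean square distance between log2 CPM values over the 4 libraries, each centered on its mean, with features averaging 100 counts or more as candidates. The nearest of 754 profiles to MIR29A was MIR29C, at 0.02, and the nearest to MIR29B1 was MIR29B2, at 0.04, where the median distances were 0.37 and 0.40. Next to MIR29A came MIR1296 at 0.05 and MIR590 at 0.07, and next to MIR29C came MIR1296 at 0.04 and MIR181C at 0.06. Next to MIR29B1 came SNORD21 at 0.06 and RNY3 at 0.13, and next to MIR29B2 came SNORD21 at 0.08 and SNORD71 at 0.09. The cluster partners were far less alike, since MIR29B1 ranked 260 of 754 for MIR29A and MIR29B2 ranked 219 for MIR29C. As given above, MIR29A and MIR29C are uncertain as separate values, as are MIR29B1 and MIR29B2. The part of reads assigned to both loci of such a pair in these distances was not tested. Over 4 libraries the ranking is a description only.

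Other features near the clusters were also examined. Of 19 listed features within 2 Mb, 7 were tested and 0 were called by edgeR or DESeq2, with 0 at an unadjusted p-value below 0.05. MIR182 and MIR183, the abundant members of a cluster that also yields MIR96, had log2 fold changes of 0.43 and 0.20, and MIR96 had −0.27. MIR335 was at −0.78, SNORD46 at −0.49, MIR205 at 0.38 and a Y RNA copy at −0.63. The values of MIR29A and MIR29C lay inside this range. Of the features below them, MIR335 averaged 31.5 counts, the Y RNA copy 16.75 and SNORD46 543.5.

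Genes that share a regulator or a target class with miR-29 were counted from fixed lists, with no test of a list. Of 24 other loci known to be repressed by MYC, all tested, 0 were called by edgeR or DESeq2. Of the 24, 15 were above 0 and 9 below. By edgeR, 7 had an unadjusted p-value below 0.05, each higher in 52X T4A, against 10.3% of all tested features. They were MIRLET7A1, MIRLET7A2, MIRLET7A3, MIRLET7B, MIRLET7C, MIRLET7E and MIR150. MIR150 averaged 17.5 counts. MIRLET7A1, MIRLET7A2 and MIRLET7A3 share a mature strand, with totals 0.23% to 2.33% apart, so they are not independent. The median log2 fold change of the 24 loci was 0.10. In that list MIRLET7E, a let-7 gene, was at 0.67 and MIRLET7B at 0.59, while MIR30A and MIR30E were at −0.30 and −0.36. Of 9 loci induced by MYC, from the miR-17-92 and miR-106b-25 clusters, 0 were called by either tool. All 9 were below 0, as were 798 of 1480 tested features. An unadjusted p-value below 0.05 by edgeR was found for 4, against 10.3% of all tested features. Loci of the same cluster are not independent, and MIR19A and MIR19B1, with 1 mismatch, had totals 6.85% apart. The median of the 9 was −0.57, with MIR19A at −0.85, MIR19B1 at −0.78, MIR25 at −0.45 and MIR92A1 at −0.48. The median of the induced loci stayed below 0 under the other scalings, at −0.58 to −0.38. That of the repressed loci stayed above 0, but these scalings raised the median of all tested features, to as much as 0.14. They were therefore no check on that sign.

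Among 15 loci known for roles in matrix and fibrosis, 13 were tested and 0 were called by edgeR or DESeq2. At an unadjusted p-value below 0.05 by edgeR, 5 were higher and 1 lower, against 10.3% of all tested features. Among the 5 were MIR133A1 and MIR133A2, of the muscle loci above, with nearly equal counts that averaged 11 and 11.25. The median was 0.56, the value of MIR199A1 and MIR199A2, whose counts were identical. The summed level of the list, set mainly by MIR21, went against the median. It was 7258 and 7670 CPM for 52X T4A and 10220 and 9618 CPM for 52X WT. MIR21, which promotes fibrosis, was at −0.57, MIR192 at 0.53, MIR200B at 0.91 and MIR200C at 0.66. Among 9 loci known to act on DNA or histone methyltransferases, as miR-29 does, 0 were called by either tool, and the median was 0.22. At that p-value 1 was higher and 2 lower, against 10.3% of all tested features. The 2 lower were MIR101-1 and MIR101-2, at −0.87 and −0.86. They share a mature strand and had nearly equal counts, so they are not independent. MIR148A, an inhibitor of DNMT1, was at 0.27 and MIR148B at −0.31.

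Families that, like miR-29, occupy duplicated clusters served as the nearest comparison. Of 19 loci of the miR-23/27/24, miR-15/16, miR-181 and miR-200 clusters, 18 were tested and 0 called by edgeR or DESeq2, and the groups did not overlap for 8, near the 40.1% of all tested features. Their median log2 fold change was −0.12, within a range of −0.54 to 1.05 that included all 4 miR-29 values, and it turned to 0.06 with upper quartile factors and 0.09 with library size alone. MIR27A and MIR27B, another pair with 1 mismatch, had −0.40 and −0.39, and their totals were 9.71% apart.

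**Figure D5:**
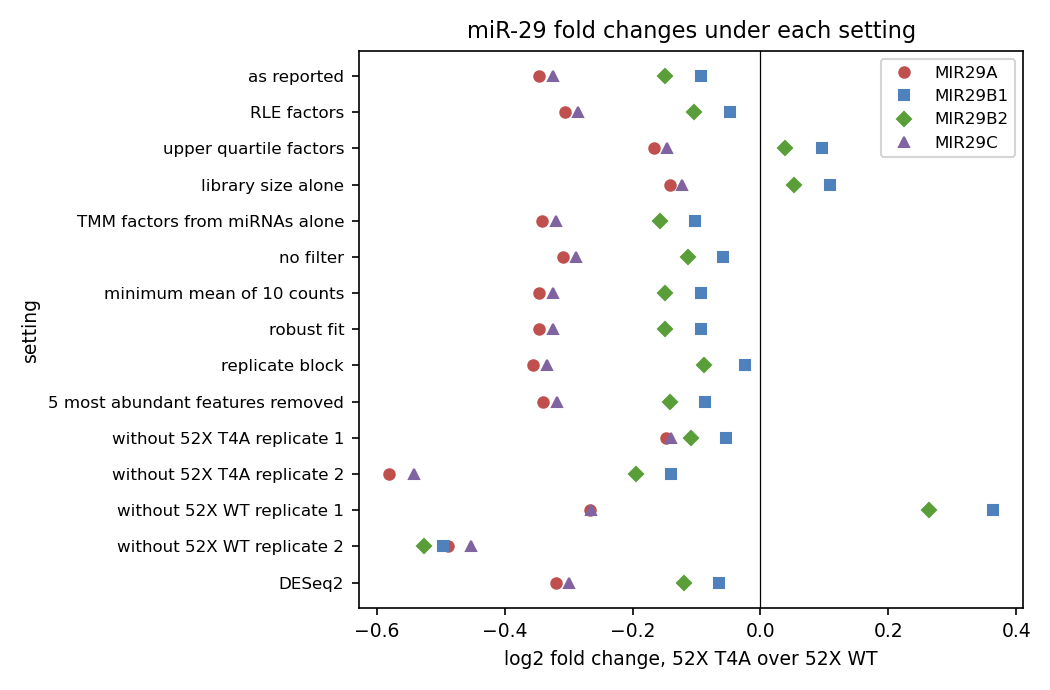
Log2 fold change of 52X T4A over 52X WT for the 4 miR-29 loci under each setting, with the reported values on top. MIR29A and MIR29C stay below 0 in all settings shown, and MIR29B1 and MIR29B2 cross 0 with upper quartile factors, library size alone and without 52X WT replicate 1.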

How the data were processed

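Small RNA was sequenced from 4 libraries, 2 per group. The authors deposited raw read counts per feature, 1 table per library, with no normalization. The submitters' processing notes name hg38, cutadapt 4.6, Bowtie2 2.3.5.1 and featureCounts 1.5.0. Settings, strand and the treatment of multiply matching reads are not given in the sources used here. Features were named by Ensembl identifier from GENCODE v44lift37 (5579 features) or by an identical RefSeq position in GRCh38.p14 (908), which named the miR-29 loci.

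Counts were filtered with filterByExpr (minimum count 10), scaled by TMM and tested with edgeR v4.0.16 (quasi-likelihood) in R v4.3.3. P-values were adjusted over all 1480 features by the Benjamini-Hochberg method, and a feature was called where its FDR was under 0.05 and it changed by over 1.5 fold. DESeq2 v1.42.0 was an alternative. Ratios used a pseudocount of 0.5. The standard error was the log2 fold change divided by the square root of F. The script was tested on simulated data. Binomial and Poisson intervals cover counting error only.

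The members and lists were chosen with earlier results of these data known. Named features were the members, the 3 nearest profiles of each, tested features within 2 Mb, and from each list the 2 most abundant and the 2 with the largest change at a mean of at least 100 counts. Other marker and list loci were named after their values were seen. Alternatives covered scaling, filters, thresholds, the test, the replicate block, abundant features and each library.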

Additional observations from a re-analysis of the deposited data

How the results depend on the processing

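No alternative brought a miR-29 locus past the threshold. MIR29A stayed below 0 in 14 alternatives and MIR29C in 15, from −0.58 to −0.14 and from −0.54 to −0.12, with adjusted p-values of 0.35 to 0.987 and 0.398 to 0.987 (edgeR or DESeq2, Benjamini-Hochberg). MIR29B1 turned to 0.0956 with upper quartile factors and 0.109 with library size alone, and MIR29B2 to 0.0389 and 0.0522. Over the fits that left out a library, MIR29B1 ranged from −0.50 to 0.36 and MIR29B2 from −0.53 to 0.26, the upper values being those without 52X WT replicate 1. The family sum stayed below 0 in 13 alternatives, from −0.54 to −0.12, and was −0.16 with upper quartile factors.

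The number of called features, 2 as reported, was 9 with library size alone, 29 without a filter and 30 with DESeq2. It was 0 with factors from miRNAs alone (143 features at an unadjusted p-value below 0.05 in edgeR) and 0 at an FDR below 0.01 (152 such features). Leaving out a library gave 4 to 218 calls, with 218 without 52X WT replicate 2, 35 without 52X WT replicate 1, 6 without 52X T4A replicate 1 and 4 without 52X T4A replicate 2, where the lone library is assumed to vary like the other group. A replicate block gave 18 calls, 0 of them miR-29 loci, which were at −0.36 (MIR29A), −0.02 (MIR29B1), −0.09 (MIR29B2) and −0.33 (MIR29C). Nothing in the labels ties libraries of one number together, and across features, which are not independent, their deviations from the group means correlated at 0.095. The cause was not tested for these changes. Leaving MIR29A and MIR29B1 out of the table, and summing MIR29C and MIR29B2 alone, were chosen after seeing the data and gave −0.33 for MIR29C and −0.32 for the sum. The miR-29b loci had 78 to 229 counts, and the part of depth in their spread was not tested.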
